A study of Mus musculus with 6 samples.

Results

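Fgf21, Gdf15 and 8 genes of the integrated stress response (Atf3, Atf4, Atf5, Ddit3, Trib3, Asns, Chac1 and Sesn2) were examined by gene symbol in the liver transcriptomes of control and Blnc1 liver-specific knockout (LKO) mice. All 10 were present among the 17460 gene symbols of the table, and all 10 were among the 17297 genes tested. Blnc1 is a long noncoding RNA. The mice were of the C57BL/6 strain, 9 months of age, and all had received a NASH diet containing fructose, trans fats and cholesterol for 24 weeks. There were 3 livers labelled control and 3 labelled LKO. Per the study, LKO mice carry a constitutive Cas9 transgene and received sgRNAs against Blnc1 from an adenovirus. Adenovirus transduces non-parenchymal liver cells poorly, and the study found the Blnc1 level of their fraction to be little changed in this model. The study reported a partial loss of Blnc1 in whole liver and a larger loss in fractionated hepatocytes. In the high-fat diet experiment the controls were Cas9 mice given GFP adenovirus. RNA came from whole liver, and the labels do not say whether the livers of a group came from separate cages or litters.

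The integrated stress response starts with kinases that phosphorylate the translation factor eIF2α when amino acids are scarce, when unfolded proteins accumulate in the endoplasmic reticulum, or when haem is low or double-stranded RNA is present. General translation then falls, while the mRNA of the transcription factor ATF4 is translated more, and ATF4 and its partner CHOP switch on genes for amino acid synthesis, transport and redox balance. In the liver the response also feeds into the circulating hormones FGF21 and GDF15. Because ATF4 and ATF5 are controlled largely at translation, their mRNA levels need not follow the amount of protein.

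ATF4 acts with C/EBP proteins at a composite DNA element, so the region around the start site of each gene was searched for the letters TGATGNAA on both strands. RefSeq (GRCm38.p6) gave 12 windows for the 10 genes, each from 250 bases before to 50 bases after an annotated start. The letters were found in 5 of these windows, 1 each for Fgf21, Asns, Chac1, Atf3 and Trib3, and in 3.97% of the 32851 windows of all genes. These 5 stretches are shown because they are the matches in the genes measured here, given on the strand of the gene, with the match in capitals:
Fgf21, chr7:45615611-45615640, − strand: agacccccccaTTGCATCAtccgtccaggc
Chac1, chr2:119351038-119351067, + strand: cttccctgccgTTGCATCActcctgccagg
Atf3, chr1:191183425-191183454, − strand: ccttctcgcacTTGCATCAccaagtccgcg
Trib3, chr2:152344028-152344057, − strand: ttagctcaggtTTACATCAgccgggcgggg
Asns, chr6:7693214-7693243, − strand: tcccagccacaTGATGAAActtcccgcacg
Relative to the RefSeq start, the first base in capitals lay 139 bases before it in Fgf21, 193 in Chac1, 110 in Atf3 and 23 in Asns. In Trib3 it lay at base 15 after the RefSeq start. These sides depend on the annotation. By the gene ends of GENCODE release M21, the Trib3 match lies before the gene, and those of Asns and Atf3 lie within it. Fgf21, Chac1 and Atf3 carry the same 8 letters. The windows of Gdf15, Atf4, Atf5, Ddit3 and Sesn2 did not hold these letters. The cAMP response element TGACGTCA, searched on both strands as well, was found in none of the 12 windows and in 1.79% of all windows.

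Values are normalised read counts, that is, reads per gene divided by the size factor of each liver, and they are not corrected for gene length. The values used here list no gene named Blnc1, so the loss of the targeted RNA was not checked. Reads recovered from the values numbered 65384969 to 89350181 per liver. Livers of a group differed from each other by more than counting noise, most of all Blnc1 LKO replicate 1 from replicate 2. Groups were compared by limma on log2(value + 1) over all 17297 genes with Benjamini-Hochberg adjustment, and fold changes are given on that scale as Blnc1 LKO minus control. Hepatocyte markers were abundant in every liver, and no gene of the 6 marker lists was at 0 in all livers. An exact permutation test on 3 against 3 livers cannot give a p below 0.1.

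None of the 10 genes passed an adjusted p of 0.05 in limma, nor in edgeR or DESeq2 on the recovered reads. Among all genes, 0.00578% passed in limma, 0.0115% in edgeR and 0.482% in DESeq2. At an unadjusted p under 0.05, Gdf15 was the 1 member lower in LKO livers (2.74% of all genes were) and Trib3 was the 1 member higher (2.94% of all genes were). Gdf15 was also the only member whose groups did not overlap, and 5.28% of all genes were separated in that way with the LKO livers lower. No member was separated with the LKO livers higher, as 5.35% of all genes were. The median log2 fold change of the 10 genes was 0.03, beside −0.00099 over all genes tested. Of the 10 genes, 6 had a positive and 4 a negative fold change.

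**Figure D1:**
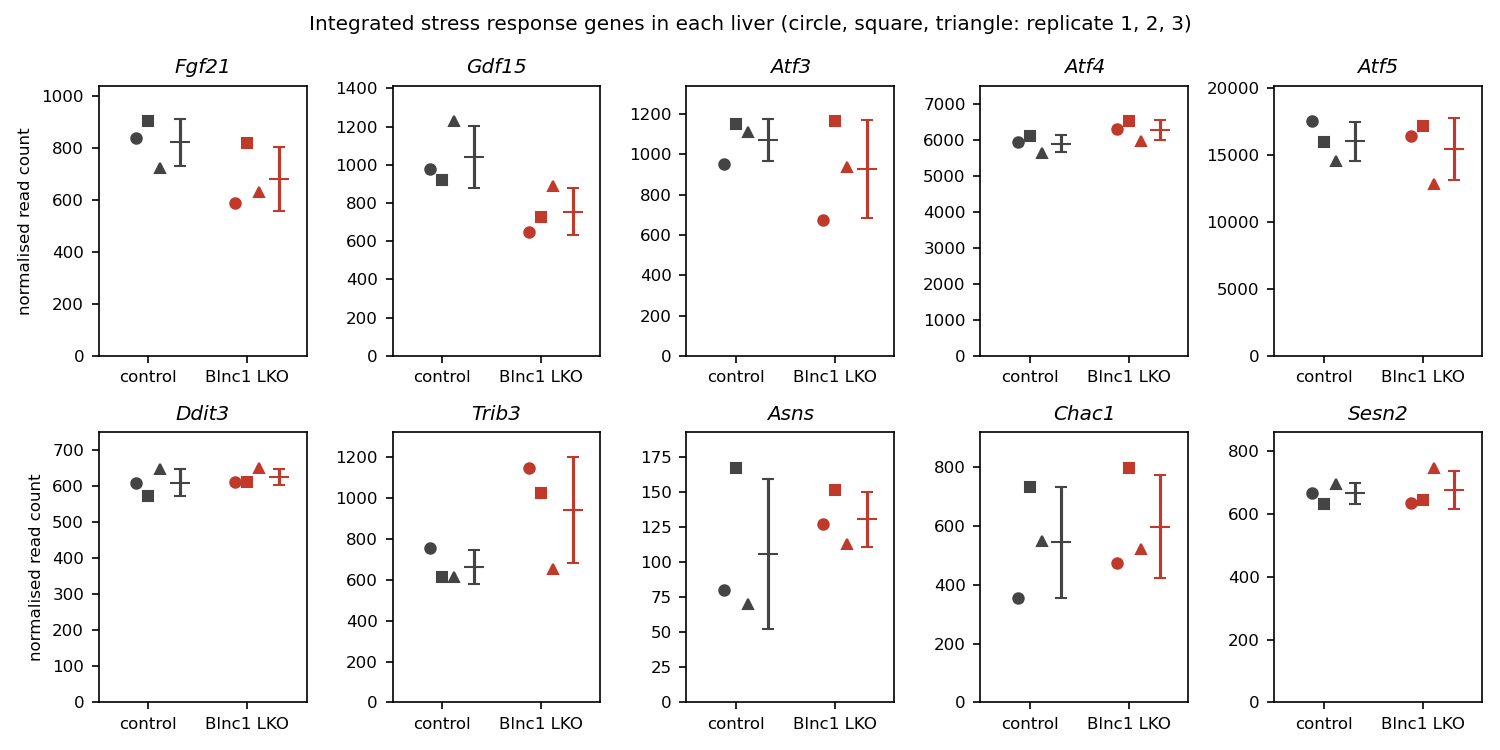
Normalised read count (vertical axes, from 0) of each of the 10 genes in 3 control livers (grey) and 3 Blnc1 LKO livers (red), with the mean and SD of each group beside the points. Only the Gdf15 values separate, with Blnc1 LKO livers from 649 to 891 and control livers from 923 to 1228.

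GDF15 is a hormone of the TGF-β superfamily that acts on the hindbrain to lower food intake. The Gdf15 value was 977, 923 and 1228 in the controls and 649, 727 and 891 in LKO livers. All 3 LKO livers were below the controls, although the gap between the highest Blnc1 LKO and the lowest control value was small. The means were 1043 ± 163 and 755 ± 123 (SD, n = 3 livers each), so the Blnc1 LKO mean was 0.725 of control. The log2 fold change was −0.47 (standard error 0.14, 95% confidence interval −0.79 to −0.15), with an adjusted p of 0.739 and an unadjusted p of 0.0097 (limma). In size, 9.70% of all genes tested had a change at least as large in either direction. The values rest on 545 to 1153 recovered reads per liver. Gdf15 is read from the − strand of chromosome 8 (70629393 to 70632456 in GRCm38) and overlaps no other annotated gene.

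Gdf15 can be expressed by several liver cell types, and markers of some of them differed between the same livers. Of 8 stellate cell and fibroblast markers, 4 (Col1a1, Col1a2, Col3a1 and Acta2) had all LKO livers below all controls. The others overlapped, with log2 fold changes of 0.16 for Lrat, −0.02 for Des, −0.06 for Dcn and −0.10 for Pdgfrb. The summed value of the list was 102233 to 114501 in control and 84327 to 102054 in LKO livers. Of 8 endothelial markers, 2 (Pecam1 and Cdh5) were lower without overlap. The others overlapped, with log2 fold changes of 0.06 for Stab2, 0.02 for Clec4g, −0.03 for Kdr and −0.06 for Tek. That of Eng was −0.09 and that of Lyve1 was −0.57. The sum of the endothelial list was 33246 to 34810 in control and 31643 to 33017 in LKO livers, with Eng the largest part of each. Of all genes tested, 5.28% were separated with the LKO livers lower and 5.35% with them higher. Of 8 macrophage markers, 1 (Adgre1) was higher without overlap. The LKO mean was higher for 5 of them and lower for 3 (Cd68, Trem2 and Cd14). Their sums were 57523 to 62887 in control and 64460 to 68490 in LKO livers, with Lyz2 the largest part of each. The sums of 7 hepatocyte, 6 cholangiocyte and 8 lymphocyte markers overlapped between groups, with no marker separated. Their part in the Gdf15 values was not tested. In whole liver, fewer cells of a type and less RNA per cell cannot be told apart.

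FGF21 is a hepatokine that acts on fat and brain through FGF receptors with the co-receptor β-klotho, and its gene also responds to PPARα. The Fgf21 value was 837, 902 and 722 in the controls and 587, 818 and 632 in LKO livers. Replicates 1 and 3 of the Blnc1 LKO livers were below every control liver, whereas replicate 2 lay between the control values. The means were 821 ± 91.3 and 679 ± 123 (SD, n = 3 livers each), which gave a log2 fold change of −0.28 with a 95% confidence interval of −0.59 to 0.03 (adjusted p = 0.891, limma). Without Blnc1 LKO replicate 2 the log2 fold change was −0.42, and without replicate 1 it was −0.18. Fgf21 is a short gene of chromosome 7, read from the − strand (GRCm38, 45613886 to 45615490), with 951 bases of exons in GENCODE release M21.

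The livers with the lowest values were not ordered alike for both hormones. Blnc1 LKO replicate 2 had an Fgf21 value near the control mean and a Gdf15 value well below every control liver. Over the 6 livers, the Pearson correlation of log2(value + 1) between Fgf21 and Gdf15 was 0.33. By that measure Gdf15 was 3996th of the 12487 genes with a mean of at least 100 in likeness to Fgf21. The genes most like Fgf21 were Tmem120a (r = 0.997), Mvp (r = 0.986) and Ier3 (r = 0.985). Those most like Gdf15 were Ndc80 (r = 0.994), Smchd1 (r = 0.984) and Rab5c (r = 0.978). Ndc80, which encodes a kinetochore protein, had values of 112, 112 and 129 in the controls and of 89.3, 93.0 and 107 in LKO livers. Such values are descriptions of 6 points that share the 2 groups and the scaling of each liver, picked as the highest among many genes.

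Among the transcription factors of the response, Atf4, Atf5 and Ddit3 had log2 fold changes of 0.09, −0.06 and 0.04, and Atf3 had −0.24. ATF4, the central activator of the response, had values of 5931, 6098 and 5639 in the controls and of 6295, 6511 and 5968 in LKO livers. Atf4 values were above every control liver in LKO replicates 1 and 2, and replicate 3 lay within the control range. The means were 5889 ± 232 and 6258 ± 273 (SD, n = 3 livers each), a log2 fold change of 0.09 (95% confidence interval −0.04 to 0.22, adjusted p = 0.951, limma). Atf4 was the gene with the smallest relative spread among controls, with an SD of 3.95% of the mean.

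ATF5 is a related factor linked to mitochondrial stress that is abundant in liver. The Atf5 value was 17493, 15937 and 14538 in the controls and 16380, 17140 and 12807 in LKO livers. Replicate 3 of the Blnc1 LKO livers was the lowest of all 6, and the other two lay within the control range. The log2 fold change was −0.06 (95% confidence interval −0.32 to 0.20, adjusted p = 0.986, limma), and its sign turned without Blnc1 LKO replicate 3 (0.072) or without control replicate 1 (0.0093). The 5′ end of Atf5 overlaps Nup62 and Il4i1, which run on the opposite strand of chromosome 7, by 571 and 272 bases. The labelled library kit does not mark strand, so reads from these bases cannot be assigned to 1 gene.

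Ddit3 encodes CHOP, the factor that follows ATF4 when stress lasts and that is tied to cell death. Its value was 608, 573 and 649 in the controls and 612, 613 and 652 in LKO livers. The groups lay almost on top of each other, with means of 610 ± 37.8 and 625 ± 22.8 (SD, n = 3 livers each) and a log2 fold change of 0.04 (95% confidence interval −0.15 to 0.22, adjusted p = 0.988, limma). The 3′ end of Ddit3 on chromosome 10 shares 68 bases with Mars, which runs on the opposite strand.

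ATF3, a repressor and activator induced early by many stresses, had values of 952, 1150 and 1111 in the controls and of 676, 1164 and 939 in LKO livers. The 3 Blnc1 LKO livers spread more widely than the controls, and replicate 1 was the lowest while replicate 2 was the highest of all 6. The means were 1071 ± 105 and 926 ± 244 (SD, n = 3 livers each), a log2 fold change of −0.24 (95% confidence interval −0.64 to 0.16, adjusted p = 0.968, limma). Without Blnc1 LKO replicate 1 the log2 fold change of Atf3 was −0.03, and without replicate 2 it was −0.42 (adjusted p = 0.404, limma).

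**Figure D2:**
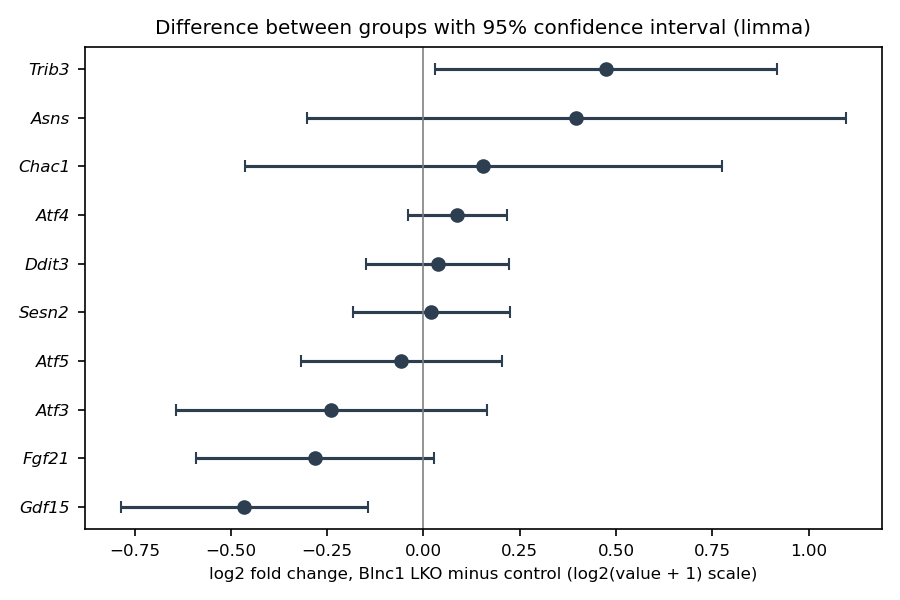
Log2 fold change (horizontal axis, Blnc1 LKO minus control) of each gene, with its 95% confidence interval from limma as bars. The intervals of Gdf15 (−0.79 to −0.15) and Trib3 (0.03 to 0.92) lie on 1 side of 0, and the other 8 include 0.

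TRIB3 is a pseudokinase induced by ATF4 and CHOP that restrains them in turn and can inhibit AKT. The Trib3 value was 757, 614 and 617 in the controls and 1150, 1025 and 653 in LKO livers. Replicates 1 and 2 of the Blnc1 LKO livers were far above every control liver, but replicate 3 lay within the control range. The means were 662 ± 81.9 and 942 ± 259 (SD, n = 3 livers each), so the Blnc1 LKO mean was 1.42 times control with an SD of 27.4% of the mean. The log2 fold change was 0.47 (standard error 0.19, 95% confidence interval 0.03 to 0.92), with an adjusted p of 0.859 and an unadjusted p of 0.0392 (limma). Without Blnc1 LKO replicate 3 it was 0.72, and without replicate 1 it was 0.31. The mean of Trib3 was higher in LKO livers, while the log2 fold changes of Ddit3 and Atf4, which act upstream of it, were 0.04 and 0.09.

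Asns encodes asparagine synthetase, a standard target of ATF4. It was the least abundant of the 10 genes, with 66 to 161 recovered reads per liver. Its value was 80.2, 167 and 70.3 in the controls and 127, 151 and 113 in LKO livers. All 3 Blnc1 LKO livers lay between the lowest and the highest control, which differed from each other by 2.38-fold. The means were 106 ± 53.4 and 130 ± 19.4 (SD, n = 3 livers each), a log2 fold change of 0.40 (95% confidence interval −0.30 to 1.10, adjusted p = 0.971, limma). With 1 liver left out the log2 fold change of Asns ranged from 0.16 to 0.78. It was 0.25, 0.78 and 0.16 without control replicates 1, 2 and 3, and the adjusted p without control replicate 2 was 0.585 (limma).

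Chac1 encodes an enzyme that degrades glutathione and is induced by ATF4 and CHOP. The Chac1 value was 354, 732 and 551 in the controls and 475, 799 and 521 in LKO livers. Replicate 2 was the highest liver in both groups. The log2 fold change was 0.16 (95% confidence interval −0.46 to 0.77, adjusted p = 0.984, limma), and its sign turned without control replicate 1 (−0.12) or without Blnc1 LKO replicate 2 (−0.072). Control replicate 2 and Blnc1 LKO replicate 2 were also the 2 highest livers for Asns. The spread of these 2 target genes within the controls, with SDs of 50.4% of the mean for Asns and 34.6% for Chac1, was larger than that of Atf4 and Ddit3.

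Sesn2 encodes sestrin 2, a leucine sensor that restrains mTORC1. Its value was 668, 632 and 697 in the controls and 635, 646 and 748 in LKO livers, with a log2 fold change of 0.02 (95% confidence interval −0.18 to 0.23, adjusted p = 0.997, limma). The groups overlapped, and replicate 3 was the highest liver in both. Sesn2 also contains Gm12981, a noncoding gene annotated on the same strand. The sign of this fold change turned without Blnc1 LKO replicate 3 (−0.053) or without control replicate 2 (−0.016).

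**Figure D3:**
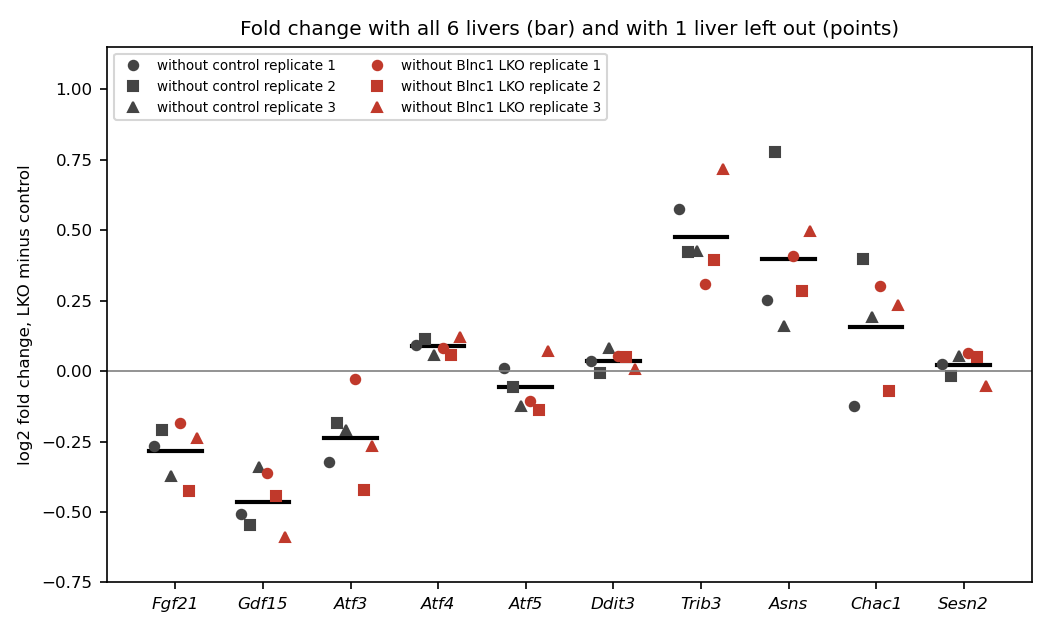
Log2 fold change (vertical axis, Blnc1 LKO minus control) of each gene with all 6 livers (black bar) and with 1 liver left out (grey points for a control liver, red for a Blnc1 LKO liver; circle, square and triangle for replicates 1, 2 and 3). Gdf15 ranges from −0.59 to −0.34 and Trib3 from 0.31 to 0.72, while Atf5, Ddit3, Chac1 and Sesn2 cross 0.

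Levels of different genes were compared per kilobase of annotated exons, which takes out gene length. In control livers Atf5 had the highest level, with 8023 ± 742 normalised reads per kilobase (SD, n = 3 livers), followed by Atf4 with 2498 ± 98.6. Fgf21 came next with 863 ± 96.0. Gdf15 with 563 ± 88.0 and Atf3 with 497 ± 48.6 did not differ beyond their SDs. The same held for the neighbours Ddit3 (356 ± 22.1), Chac1 (333 ± 115) and Trib3 (312 ± 38.6). Sesn2 had 192 ± 9.36 and Asns 38.7 ± 19.5. In Blnc1 LKO livers Trib3 had 443 ± 122 and Gdf15 408 ± 66.7, so the order of these 2 genes was exchanged, with SDs that overlapped.

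Other genes of the pathway were taken from 8 lists with 119 genes tested in all. At an unadjusted p under 0.05, 6 of them were lower in LKO livers (5.04%, beside 2.74% of all genes) and 2 were higher (1.68%, beside 2.94%). In limma 0 of the 119 passed an adjusted p of 0.05, and the median log2 fold change of the 119 genes was −0.01. At the same threshold edgeR called 0, DESeq2 called Ero1lb, and DESeq2 with a replicate block, under which 0.367% of all genes passed, called Jun.

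Upstream of ATF4, none of 19 genes had an unadjusted p under 0.05, beside 2.74% lower and 2.94% higher among all genes. Fold changes of these 19 genes lay between −0.12 and 0.11 on the log2 scale. These genes encode the eIF2α kinases and their regulators (Gcn1l1, Impact, Dnajc3 and Oma1), the eIF2α phosphatase subunits and the eIF2 and eIF2B complexes. Eif2ak3, the kinase PERK of the endoplasmic reticulum, had a log2 fold change of −0.08 (adjusted p = 0.973, limma). Eif2ak4, the amino acid sensor GCN2, had values of 969, 1018 and 1036 in the controls and of 874, 950 and 968 in LKO livers, just below every control, with a log2 fold change of −0.12 (adjusted p = 0.946, limma). Eif2ak1, the haem-regulated kinase, had 0.11, and Eif2ak2, the double-stranded RNA sensor PKR, had 0.03. The phosphatase subunits Ppp1r15a (GADD34), itself induced by the response, and Ppp1r15b (CReP) had log2 fold changes of −0.03 and 0.09. The phosphorylation state of eIF2α was not measured.

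Among 15 bZIP partners and feedback factors of ATF4, the LKO mean was the lower for 12 (50.4% of all genes tested had a lower LKO mean). At an unadjusted p under 0.05, 2 of the 15 were lower, beside 2.74% of all genes. The median log2 fold change was −0.12. Blnc1 LKO replicate 1 was the lowest of the 6 livers for 11 of the 15 genes, as it was for 24.4% of all genes. Without this liver the LKO mean was the lower for 10 of the 15, and the median was −0.07. Jun, a subunit of AP-1, had values of 4306, 4667 and 4511 in the controls and of 2285, 3333 and 3995 in LKO livers, without overlap, and a log2 fold change of −0.52 (adjusted p = 0.791, limma). The adjusted p of Jun was 0.220 in DESeq2 and 0.0254 in DESeq2 with a replicate block. Without Blnc1 LKO replicate 1 the log2 fold change of Jun was −0.30. Cebpb, a partner of ATF4 at the composite element, had values of 4518, 4912 and 5073 in the controls and of 3737, 4186 and 4563 in LKO livers, with a log2 fold change of −0.22 (adjusted p = 0.840, limma). The highest Blnc1 LKO liver lay just above the lowest control for Cebpb. Blnc1 LKO replicate 1 had the lowest value for both genes, as it had for Fgf21, Gdf15 and Atf3.

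Among 15 genes of serine, one-carbon and proline synthesis and related amino acid enzymes, 2 were lower at an unadjusted p under 0.05 (2.74% of all genes were). None was higher (2.94% of all genes were). Gpt2, a mitochondrial alanine aminotransferase, had values of 70608, 65811 and 72336 in the controls and of 60610, 60314 and 58355 in LKO livers. Its groups did not overlap, and the log2 fold change was −0.22 (adjusted p = 0.787, limma). Got1, the cytosolic aspartate aminotransferase, had a log2 fold change of −0.16 (adjusted p = 0.873, limma) with groups that overlapped.

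Of 20 cytosolic aminoacyl-tRNA synthetases, which charge tRNAs and include many ATF4 targets, the LKO mean was higher for 10 and lower for 10, and the median log2 fold change was 0.0029. Mars, the methionine enzyme, was the 1 gene of this list at an unadjusted p under 0.05, with 4494, 4360 and 4140 in the controls and 4871, 4604 and 4796 in LKO livers (log2 fold change 0.14, adjusted p = 0.851, limma). Of 10 amino acid transporters, 1 was lower at that threshold and none was higher. Of all genes, 2.74% were lower and 2.94% higher at that threshold. Slc1a4, a carrier of alanine, serine and cysteine, had values of 1172, 1289 and 1351 in the controls and of 989, 1072 and 932 in LKO livers. These did not overlap, and the log2 fold change was −0.35 (95% confidence interval −0.53 to −0.16, adjusted p = 0.548, limma).

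Among 20 other targets of ATF4 and CHOP, 1 was higher and 1 lower at an unadjusted p under 0.05, beside 2.94% and 2.74% of all genes. Ero1lb, an oxidase of the endoplasmic reticulum that forms disulfide bonds, had values of 2386, 2394 and 2439 in the controls and of 3312, 2739 and 3263 in LKO livers. All 3 Blnc1 LKO livers were above every control, and the log2 fold change was 0.36 (95% confidence interval 0.19 to 0.54, adjusted p = 0.548, limma). DESeq2 on the recovered reads called Ero1lb, with an adjusted p of 0.0194. Sqstm1, the autophagy receptor p62 and also a target of NRF2, had 40301, 39436 and 37037 in the controls and 34368, 36204 and 34133 in LKO livers, with a log2 fold change of −0.16 (adjusted p = 0.851, limma). None of 13 mitochondrial stress response genes had an unadjusted p under 0.05, and their fold changes lay between −0.11 and 0.08 on the log2 scale.

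**Figure D4:**
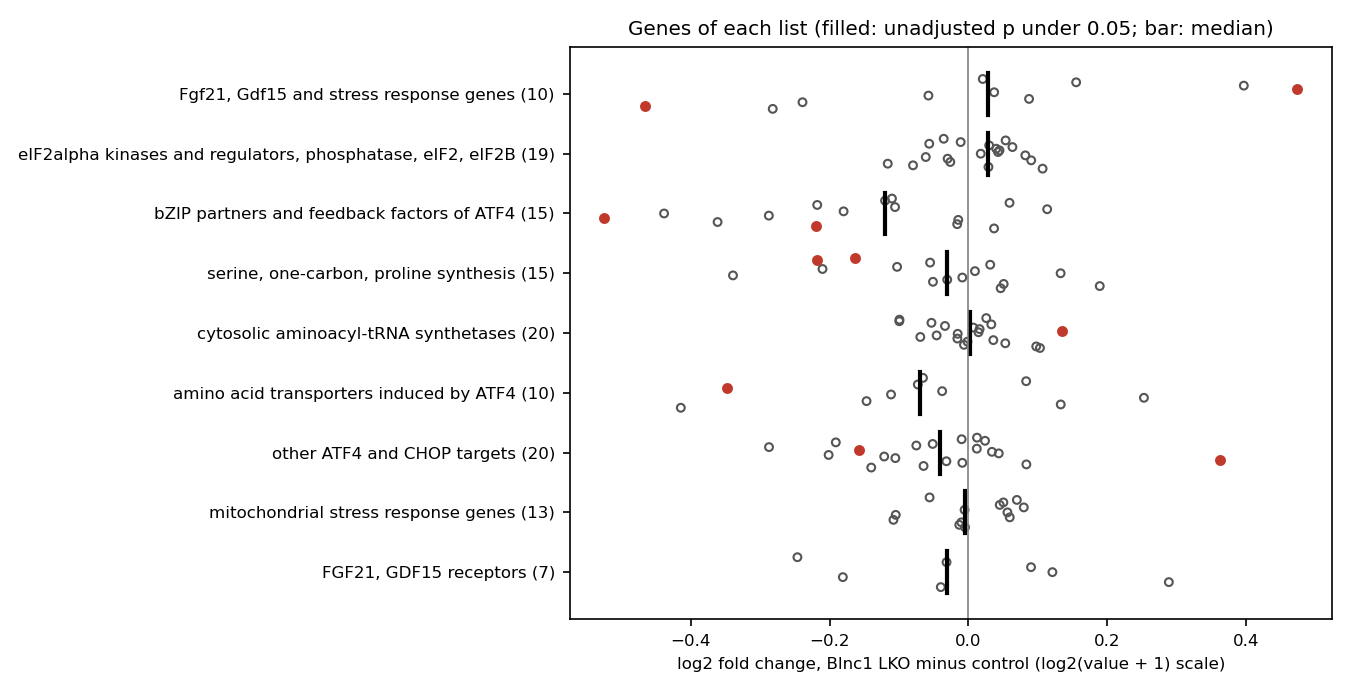
Log2 fold change (horizontal axis, Blnc1 LKO minus control) of the genes of each list (rows, with the number tested), filled where the unadjusted p was under 0.05 in limma, with the median as a bar. Filled points are Gdf15 and Trib3 in the top row and 8 genes below it, of which 6 lie left of 0 and 2 right of it.

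Genes of FGF receptors, of the klotho family (Klb and Kl) and of GDF15 signalling were followed as well. Kl had 1 to 7 recovered reads per liver. The GDF15 receptor Gfral is not listed in the values used here. For GDF15 this left its co-receptor Ret, with 7 to 11 recovered reads per liver. None of the 7 genes followed (Fgfr1 to Fgfr4, Klb, Kl and Ret) had an unadjusted p under 0.05. Of all genes, 2.74% were lower and 2.94% higher at that threshold. Klb, which encodes β-klotho, had values of 1489, 1402 and 1448 in the controls and of 1755, 1352 and 1172 in LKO livers, which bracketed the controls on both sides (log2 fold change −0.04, adjusted p = 0.994, limma). Fgfr4, the main FGF receptor of hepatocytes, had a log2 fold change of −0.03 (adjusted p = 0.989, limma). Fgfr1 had −0.18 (adjusted p = 0.968, limma).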

How the data were processed

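PolyA-selected liver mRNA of 6 mice was sequenced on libraries made with the TruSeq RNA Library Prep Kit v2. Per the authors, STAR aligned the reads (mm10), HTSeq assigned them to genes and DESeq2 followed (FastQC is also named in the submitters' processing notes); versions, annotation and HTSeq settings are not given in the sources used here. The deposited signal is a gene's reads after division by the liver's size factor. Columns named WT and KO with a number were matched to the control and LKO livers of that number. All 10 members and the pathway and marker lists were chosen with earlier results of these data known.

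limma 3.58.1 (R 4.3.3; lmFit, eBayes with trend) was fitted to log2(value + 1) over 17297 of 17460 genes (3 or more livers at a value of 1 or more), with groups only and Benjamini-Hochberg adjustment at 0.05. P-values measure the spread between these livers. Values were divided by the smallest value above 0 of each column, and 100% were whole reads (within 0.01), which were used for edgeR 4.0.16 (quasi-likelihood test) and DESeq2 1.42.0. Other alternatives were a pseudocount of 0.1, other filters, the replicate number as a block and each liver left out. The fits were tested on simulated data. Named pathway genes are, per list, up to 2 in each direction of smallest unadjusted p under 0.05, plus the eIF2α kinases, Ppp1r15a, Ppp1r15b, Klb and Fgfr4. Genes most like Fgf21 or Gdf15 are the 3 of highest Pearson r. Lengths and coordinates of genes are from GENCODE M21 (GRCm38, the build of mm10), and the 12 start-site windows are from RefSeq (GRCm38.p6), matched by symbol.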

Additional observations from a re-analysis of the deposited data

How the results depend on the processing

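None of the 10 genes passed an adjusted p of 0.05 under any of the 14 alternatives (adjusted p for Gdf15 from 0.0644 to 1.00). Fgf21, Gdf15, Atf3, Atf4, Trib3 and Asns kept their direction in all 14. Other filters and the block in limma left the fold changes the same, so these settings could not turn a sign. Leaving out a liver could not turn that of Gdf15 either, because its groups do not overlap. Gdf15 had an unadjusted p under 0.05 in all 14, Trib3 in 10, Fgf21 in 4, and Atf3 and Asns in 1 each. Atf4, Atf5, Ddit3, Chac1 and Sesn2 had it in 0. In the main fit, 2.74% of all genes were lower and 2.94% higher at that threshold. The alternatives reuse the same 6 livers, so these counts are not independent support. Signs turned with a liver left out for Atf5 (range −0.14 to 0.072, with 0.072 without Blnc1 LKO replicate 3 and 0.0093 without control replicate 1), Ddit3 (range −0.0067 to 0.082, with −0.0067 without control replicate 2), Chac1 (range −0.12 to 0.40, with −0.072 without Blnc1 LKO replicate 2 and −0.12 without control replicate 1) and Sesn2 (range −0.053 to 0.064, with −0.053 without Blnc1 LKO replicate 3 and −0.016 without control replicate 2). The count of all genes past an adjusted p of 0.05 was 1 with limma, 2 without a filter, 2 with edgeR, 84 with DESeq2, and 0 to 13 with each liver left out, the 13 without Blnc1 LKO replicate 2. For the 119 pathway genes, alternatives added after the data were seen gave 3 to 10 lower and 1 to 7 higher at an unadjusted p under 0.05 with each liver left out (10 lower without Blnc1 LKO replicate 1, 3 without control replicate 2 or 3, 7 higher without Blnc1 LKO replicate 2). DESeq2 gave 1 higher. The causes were not tested.

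Same-numbered livers did not deviate together from their group means (r = −0.06, −0.02 and −0.11 over genes), so the replicate number was not treated as a pairing. With it as a block, limma called 0 and DESeq2 64 of all genes, none of the 10 members, and each gave 1 pathway gene higher at an unadjusted p under 0.05. Gdf15 then had adjusted p-values of 0.604 and 0.0644. Blocked DESeq2 called Jun (adjusted p = 0.0254, and 0.220 unblocked), and unblocked DESeq2 called Ero1lb. The interval of Asns was the widest of the 10. Asns had 66 to 161 recovered reads per liver and a control SD of 50.4% of the mean, and the part of each in the interval was not tested.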

Other observations

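Of the 119 pathway genes, 11 had all LKO livers below all controls (9.24%, beside 5.28% of all genes) and 3 had them above (2.52%, beside 5.35%). Among those not described above, chosen after their values were seen, Slc7a11, which encodes the cystine carrier that supplies glutathione synthesis, had values of 45.7, 55.4 and 50.1 in the controls and of 38.1, 36.6 and 37.6 in LKO livers (log2 fold change −0.41, adjusted p = 0.891, limma). Mthfd1l, a mitochondrial one-carbon enzyme, had 910, 884 and 1086 against 587, 832 and 883 (log2 fold change −0.34, adjusted p = 0.888, limma). Nfe2l2, which encodes NRF2, had 11680, 12029 and 12137 against 11269, 10763 and 11182 (log2 fold change −0.11, adjusted p = 0.880, limma). Slc7a11 had only 32 to 52 recovered reads per liver. The remaining separated genes not described above were Hars, Sesn1 and Lonp1, lower, with log2 fold changes of −0.07, −0.05 and −0.11. Fis1 was higher (0.08). None of these genes was called by limma over all genes.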
